A study of Drosophila melanogaster with 6 samples.

Results

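The sarcomere, the contractile unit of striated muscle, is built from thick filaments of myosin that slide along thin filaments of actin. Calcium bound by troponin C lets the filaments engage by shifting tropomyosin along the actin surface, away from the sites that bind myosin. The 10 genes described here code for parts of both filaments in *Drosophila melanogaster*. They were listed by symbol, with earlier results of these data known. *Mhc*, *Mlc1*, *Mlc2*, *Mf* and *Prm* belong to the thick filament, and *Tm2*, *up*, *wupA*, *TpnC73F* and *TpnC4* to the thin filament. All 10 were found by FlyBase identifier among the 17471 genes of the count tables, and all 10 passed the filter on low counts, as did 10841 genes in total. The wing disc is an epithelium that forms the adult wing and notum. It carries the precursors of the adult flight muscles, which are not yet differentiated in larvae, while contracting muscle of this stage lies in the body wall, gut and other organs.

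RNA came from wing discs of females at the wandering stage of the last larval instar, with 30 discs in each sample. There were 3 *dLsd1* mutant samples (labelled dLsd1∆N/dLsd1∆N, homozygous for a deletion that is kept over a balancer chromosome) and 3 *wild-type* samples (the w1118 stock, inbred but not isogenised), all grown at 25 °C. dLsd1 is an enzyme that takes methyl groups off histones, and the question was which genes change in the disc without it. The mutant and *wild-type* stocks were kept separately, so the effects of the deletion and of other differences between the stocks cannot be told apart in these libraries. The labels do not say whether the samples of a genotype came from separate cultures, so that p-values measure only the spread between these samples.

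The tables hold whole-number read counts, with 13960866 to 45909324 counts per library and the lowest total in *wild-type* replicate 2. Levels are given in CPM, the usual measure of read count relative to library size, here after TMM scaling. Counts of *dLsd1* itself, listed as Su(var)3-3, were 7, 6 and 1 in the mutant libraries and 2136, 676 and 2564 in the *wild-type* libraries. The mutant libraries thus held almost no reads of the mutated gene. The labelled tissue was checked against genes that define the wing disc, such as *vg*, *nub* and *ap*. All 9 of those matched were expressed, with summed levels of 1657 to 1825 CPM in the mutant and 1302 to 2316 CPM in *wild-type*.

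Transcripts of the 10 sarcomere genes were rare in these discs. Together they reached 64.9, 67.6 and 35.3 CPM in mutant replicates 1 to 3 and 25.6, 42.9 and 23.2 CPM in *wild-type* replicates 1 to 3. The genotypes overlapped, since *wild-type* replicate 2 lay above mutant replicate 3. The log2 ratio of the genotype means was 0.87. Per kilobase of exon, *Mlc2* led in both genotypes, at 10.1 ± 2.04 CPM per kb in the mutant and 6.57 ± 1.05 CPM per kb in *wild-type* (SD, n = 3 libraries each). *TpnC73F* followed, at 2.98 ± 1.54 CPM per kb in the mutant and 2.64 ± 1.06 CPM per kb in *wild-type*. In the mutant the other 8 genes lay between 2.33 CPM per kb for *wupA* and 0.518 CPM per kb for *Mhc*, and neighbours in that order overlapped in their ranges. *Mhc* stood at 0.258 CPM per kb in *wild-type*, where *Mf* (0.162) and *TpnC4* (0) were the only members below it. The scale of these values is set by the non-muscle counterparts. *Act5C*, a cytoplasmic actin, averaged 2651 CPM per kb over the 6 libraries, and *sqh*, the regulatory light chain of non-muscle myosin, averaged 160.0 CPM per kb.

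**Figure D1:**
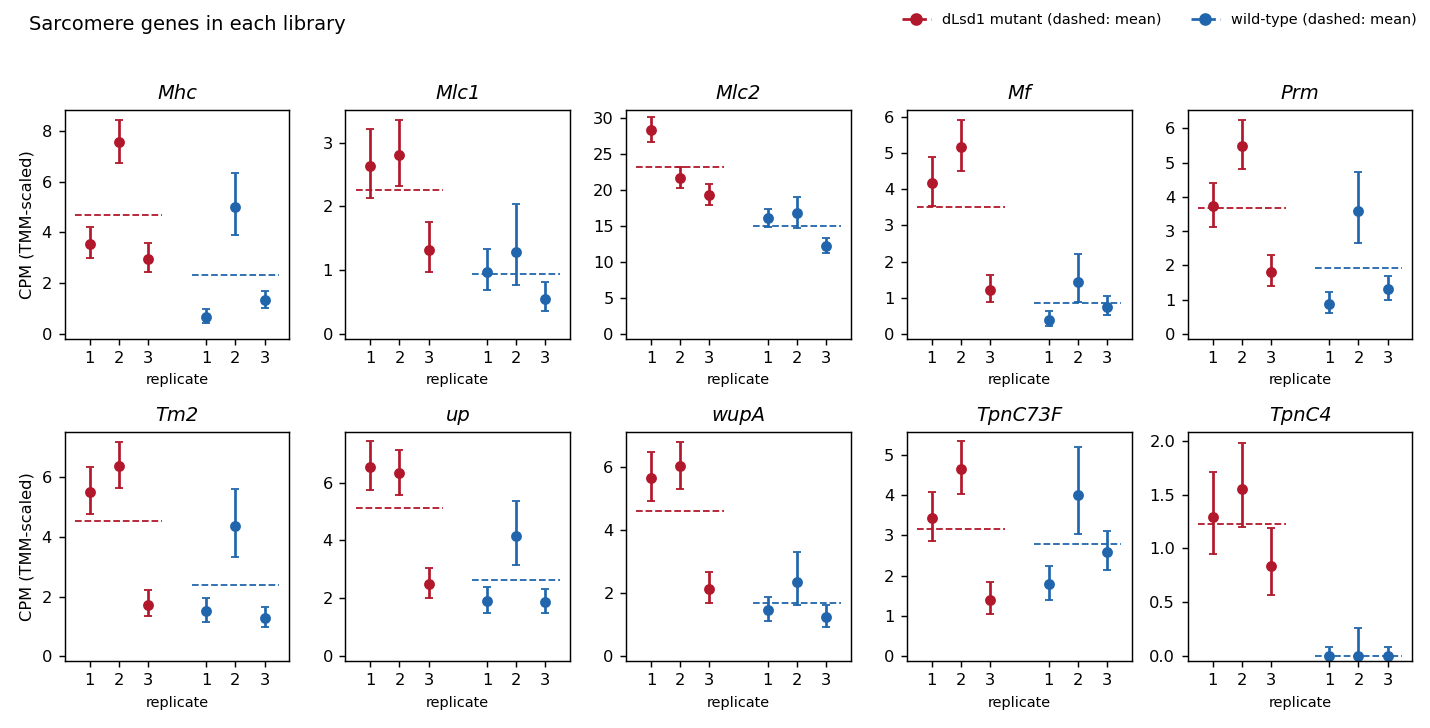
Level of each of the 10 sarcomere genes in CPM (TMM-scaled, linear axis) in the 3 *dLsd1* mutant libraries (red) and the 3 *wild-type* libraries (blue), by replicate number. Bars are exact 95% Poisson intervals, which cover counting error only, and dashed lines are genotype means. *TpnC4* was at 0 in each *wild-type* library, and *wild-type* replicate 2 was above mutant replicate 3 for *Mhc*, *Mf*, *Prm*, *Tm2*, *up*, *wupA* and *TpnC73F*.

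The thick filament genes were measured from 16 to 1034 counts per library. *Mhc*, the muscle myosin heavy chain (FBgn0264695; dm6 assembly, here and for the other genes: 2L, 16766566 to 16788766), had 3.56, 7.54 and 2.97 CPM in mutant replicates 1 to 3, against 0.684, 5.01 and 1.33 CPM in *wild-type* replicates 1 to 3. The highest *wild-type* library thus exceeded the lowest and the middle mutant libraries. Its log2 fold change was 1.13 with a standard error (SE) of 0.80, and its adjusted p in the quasi-likelihood test of edgeR was 0.494.

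*Mlc1*, the essential light chain of muscle myosin (3R, 27657078 to 27660177), had 2.63, 2.81 and 1.32 CPM in the mutant, against 0.977, 1.29 and 0.553 CPM in *wild-type*. The genotypes did not overlap, although mutant replicate 3 and *wild-type* replicate 2 were separated by less than their counting intervals. The log2 fold change was 1.32 ± 0.42 (SE; edgeR adjusted p = 0.134).

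*Mlc2*, the regulatory light chain of muscle myosin (3R, 30171438 to 30174551), had 28.4, 21.7 and 19.4 CPM in the mutant, against 16.0, 16.7 and 12.3 CPM in *wild-type*. The 3 mutant libraries were above the 3 *wild-type* libraries, and *Mlc2* was the member with the least spread between replicates. It rose by a log2 fold change of 0.63 ± 0.18 (SE; edgeR adjusted p = 0.0941), just past both thresholds. In the 6 fits that left out a library each it was past them in 0, with log2 fold changes from 0.46 to 0.74 and adjusted p-values from 0.0588 to 0.279.

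*Mf*, which codes for myofilin, a protein of the insect thick filament (3R, 15170625 to 15181510), had 4.17, 5.16 and 1.22 CPM in the mutant, against 0.391, 1.43 and 0.751 CPM in *wild-type*. Mutant replicate 3 lay within the *wild-type* range and the other mutant libraries above it. *Mf* had the largest log2 fold change of the members detected in both genotypes, 2.15 ± 0.66 (SE; edgeR adjusted p = 0.140). *Prm*, paramyosin, the core protein of invertebrate thick filaments (3L, 8732858 to 8745310), had 3.73, 5.49 and 1.81 CPM in the mutant, against 0.879, 3.58 and 1.30 CPM in *wild-type*. Here *wild-type* replicate 2 was close to mutant replicate 1, and the log2 fold change was 1.03 ± 0.62 (SE; edgeR adjusted p = 0.422).

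Among the thin filament genes, *Tm2*, a muscle tropomyosin (3R, 15310193 to 15315197), had 5.51, 6.39 and 1.73 CPM in the mutant, against 1.51, 4.36 and 1.28 CPM in *wild-type*. *up* (upheld), the troponin T gene (X, 13593474 to 13602578), had 6.55, 6.32 and 2.49 CPM in the mutant, against 1.90, 4.15 and 1.88 CPM in *wild-type*. For both genes mutant replicates 1 and 2 were the highest libraries and *wild-type* replicate 2 came next. The log2 fold changes were 1.01 ± 0.66 (SE) for *Tm2* and 1.01 ± 0.47 (SE) for *up*, and edgeR gave adjusted p-values of 0.458 and 0.304.

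*wupA*, the troponin I gene (X, 18105568 to 18116922), had 5.65, 6.01 and 2.14 CPM in the mutant, against 1.47, 2.36 and 1.24 CPM in *wild-type*. Only *wild-type* replicate 2 reached above the lowest mutant library. Its log2 fold change was 1.49 ± 0.44 (SE; edgeR adjusted p = 0.110), short of the threshold of 0.1. *TpnC73F*, a troponin C of larval and adult muscles (3L, 17046063 to 17048390), had 3.43, 4.64 and 1.41 CPM in the mutant, against 1.78, 4.01 and 2.59 CPM in *wild-type*. Mutant replicate 3 was the lowest of the 6 libraries for *TpnC73F*, whose log2 fold change was 0.21 ± 0.47 (SE; edgeR adjusted p = 0.833). Leaving out mutant replicate 2 turned this to -0.21, and leaving out *wild-type* replicate 1 to -0.04.

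*TpnC4* (FBgn0033027; 2R, 5503437 to 5507866) differed from the other members. It codes for a troponin C of the adult indirect flight muscles. Its counts were 47, 66 and 31 in mutant replicates 1 to 3 (1.29, 1.56 and 0.838 CPM) and 0 in each *wild-type* library. No *wild-type* library therefore gave any read of this gene. Against a floor of 3 counts per *wild-type* library, the mutant level of *TpnC4* was higher by at least 10.4-fold (edgeR adjusted p = 0.00359). It rose past the thresholds in all 6 fits that left out a library each, with adjusted p-values from 0.00247 to 0.0302. The shallow *wild-type* replicate 2, in which the other members were high, would have had 11.7 counts of *TpnC4* at the level of mutant replicate 3. The floor of 3 counts stands for 0.215 CPM in that library.

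The *TpnC4* gene lies on the opposite strand within the span of *Ugt50B3*, and the strand setting of the counting is not given in the sources used here. *Ugt50B3* had 55, 48 and 66 counts in the mutant and 68, 27 and 149 counts in *wild-type*, so that its counts did not follow those of *TpnC4*. Of the genes within 50 kb of *TpnC4* only *Ugt50B3* and *CG30440* were tested, and 0 of these 2 were differentially expressed by edgeR (adjusted p-values of 0.350 and 0.866). *Mf* is overlapped by *Gyc88E* on the opposite strand, which had at most 8 counts in any library. The other 8 members overlap no gene of the annotation that is in the tables. Within 50 kb of the 10 members, 156 neighbours were tested by edgeR, with 2 upregulated and 6 downregulated. Over all genes tested the shares were 4.32 percent upregulated and 2.23 percent downregulated. The 2 upregulated neighbours, *SclA* and *SclB*, lie near *Mhc*.

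Other troponin C and adult muscle genes were then compared with *TpnC4*, a choice made after their values were seen. *TpnC41C*, another troponin C of adult muscle, had 13, 0 and 2 counts in the mutant and 3, 0 and 2 counts in *wild-type*. *Act88F*, the flight muscle actin, had 1, 0 and 0 counts in the mutant and 6, 0 and 1 in *wild-type*, and *fln* (flightin) had 0, 0 and 4 counts in the mutant and 0, 0 and 1 in *wild-type*. *Act88F* and *fln* fell below the filter on low counts and were not tested. *TpnC41C* was tested and not called (edgeR adjusted p = 0.593), and counts this low could hide a difference. The troponin C gene *TpnC47D* had 22, 23 and 10 counts in the mutant and 12, 2 and 1 counts in *wild-type*, with a log2 fold change of 1.61 ± 0.77 (SE; edgeR adjusted p = 0.306).

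The thresholds of the study, which it set on DESeq2 results, were applied here to edgeR to call a gene differentially expressed. They ask for a log2 fold change of over 0.6 in size together with an adjusted p-value under 0.1. By this rule 2 of the 10 members, *Mlc2* and *TpnC4*, were upregulated and 0 downregulated, against 4.32 percent of all genes tested that were upregulated and 2.23 percent that were downregulated. At an unadjusted p under 0.05 there were 5 members, against 18.5 percent of all genes. All 10 log2 fold changes were positive. Their median was 1.08, also with *TpnC4* set at its lower bound, against -0.02 over all genes tested. The share of all genes with a positive value was not counted. Most members moved together between libraries, as described below, so their signs are not separate observations. All mutant libraries lay above all *wild-type* libraries for 3 members, *Mlc1*, *Mlc2* and *TpnC4*, and this held for 13.2 percent of all genes tested.

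**Figure D2:**
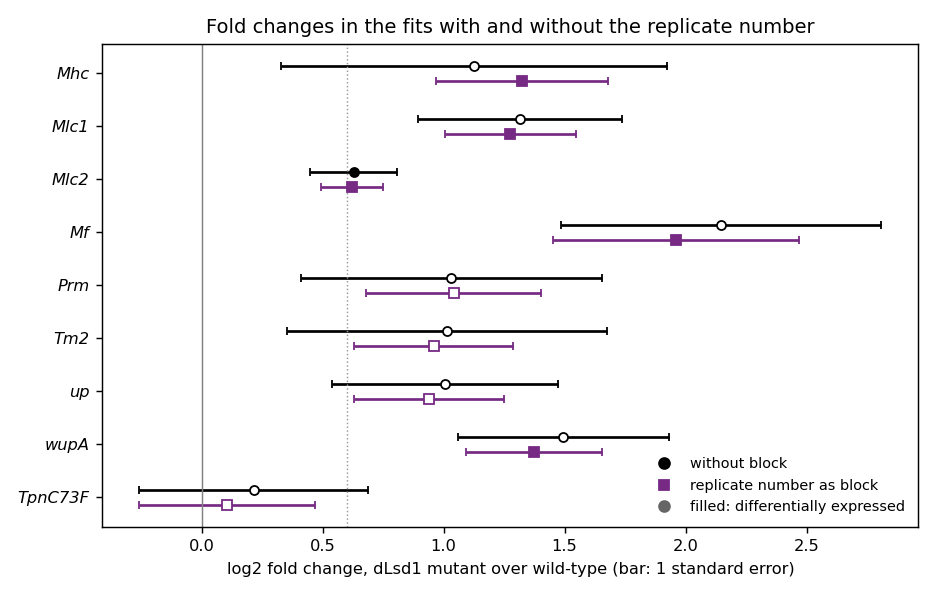
Log2 fold change of 9 sarcomere genes, *dLsd1* mutant over *wild-type*, with bars of 1 standard error, from edgeR without a block (circles) and with the replicate number as a block (squares). Filled symbols were differentially expressed, and the dotted line marks 0.6. *TpnC4*, at 0 in *wild-type*, is not drawn. Without the block *Mlc2* was called, and with it *Mhc*, *Mlc1*, *Mlc2*, *Mf* and *wupA*.

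Samples of the same replicate number deviated together, as given in the processing summary. With the replicate number as a block, 6 of the 10 members were upregulated in place of 2, against 4.62 percent of all genes. *TpnC4* and *Mlc2* were joined by *Mhc* (log2 fold change 1.32 ± 0.36 SE, adjusted p = 0.0914), *Mlc1* (1.28, adjusted p = 0.0468), *Mf* (1.96, adjusted p = 0.0844) and *wupA* (1.37, adjusted p = 0.0406), all from edgeR. The adjusted p-values of *up*, *Tm2* and *Prm* were 0.149, 0.160 and 0.163 in that fit, and that of *TpnC73F* was 0.878. DESeq2's Wald test without a block called 5 members, *Mlc1*, *Mlc2*, *Mf*, *TpnC4* and *wupA*, against 4.93 percent of all genes upregulated. With upper-quartile normalization or a filter of at least 60 counts 1 member was called, against 4.57 and 4.54 percent of all genes upregulated. With mutant replicate 1, 2 or 3 left out, 1, 1 and 3 members were upregulated, against 2.96, 2.16 and 2.57 percent of all genes. With *wild-type* replicate 1, 2 or 3 left out, 1, 2 and 3 members were upregulated, against 2.66, 3.84 and 11.1 percent of all genes. *TpnC4* was called in each of the fits run.

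Between libraries of the same number, each of the 9 members detected in *wild-type* was higher in the mutant for replicates 1 and 2, and 8 of 9 for replicate 3, with *TpnC73F* the exception (a ratio of 0.544). These counts also come from members that moved together, and the shares over all genes were not counted. The size of the difference was uneven. The median ratio over these members was 3.64 for replicate 1, 1.52 for replicate 2 and 1.58 for replicate 3. For *Mf* the ratio was 10.7, 3.61 and 1.62 in replicates 1 to 3, and for *Mhc* it was 5.21, 1.51 and 2.24. *Mlc1* was the steadiest, at 2.69, 2.18 and 2.40.

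The members were then compared for how far they moved within a genotype and how far between genotypes. The difference between the genotype means was smaller than the fold between the highest and the lowest library of a genotype for 7 of the 9 members detected in *wild-type*. Only *Mlc1* and *Mlc2* differed more between genotypes than within either. A gene with no rise in the mutant counts as having the larger spread by construction. The share of all genes with the larger spread was not counted, so 7 of 9 does not set the members apart from other genes. The spread within the mutant exceeded the difference for 7 members and the spread within *wild-type* for 5. *Mhc* varied 2.54-fold within the mutant and 7.32-fold within *wild-type*, the widest spread of a member in *wild-type*, against a ratio of the means of 2.01. Within the mutant *Mf* varied most, 4.24-fold. *Prm* varied 3.03-fold and 4.07-fold against 1.92, and *Tm2* varied 3.69-fold and 3.40-fold against 1.90. *Mlc2* varied 1.46-fold within the mutant and 1.36-fold within *wild-type*, against 1.54. A range over fewer libraries tends to be narrower. The count of 7 depended most on *wild-type* replicate 2. Without it, the spread within a genotype exceeded the difference for 2 members, *Tm2* and *TpnC73F*, and *Mhc* had a ratio of the means of 4.67. Without mutant replicate 3 the count was 4.

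**Figure D3:**
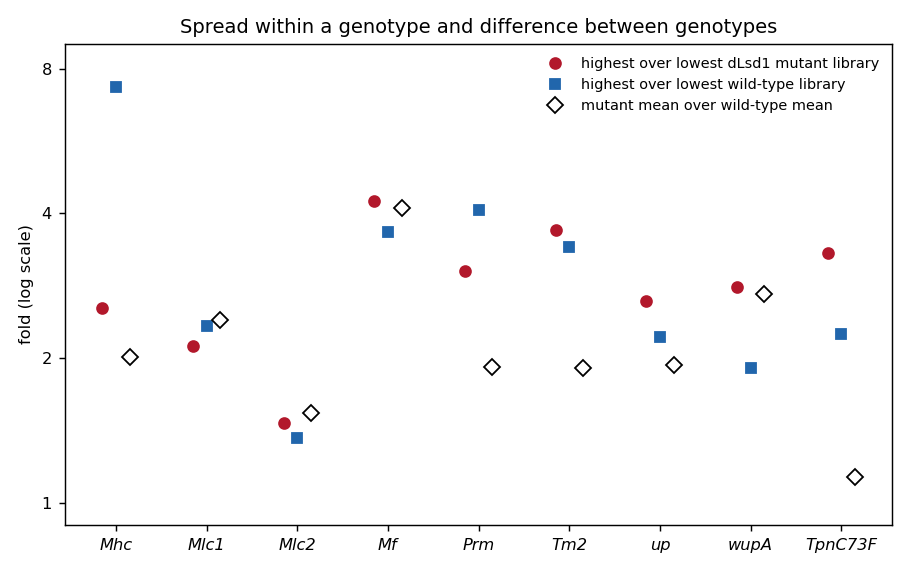
Fold between the highest and the lowest of 3 libraries within the *dLsd1* mutant (red circles) and within *wild-type* (blue squares), and the mutant mean over the *wild-type* mean (open diamonds), for the 9 sarcomere genes detected in both genotypes, on a log axis. The diamond is the highest symbol for *Mlc1* and *Mlc2* only.

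Within each genotype the members moved together. Mutant replicate 3 was the lowest mutant library for all 9 members with a mean of at least 30 counts, which leaves out *TpnC4*, and *wild-type* replicate 2 was the highest *wild-type* library for all 9. Mutant replicate 2 was the highest mutant library for 7 of them and replicate 1 for *Mlc2* and *up*. *TpnC4* had the same order of mutant libraries, with a 1.86-fold range. In the mean profile of the 9 members, mutant replicates 2 and 1 were 2.65-fold and 2.22-fold above mutant replicate 3, and *wild-type* replicate 2 was 2.47-fold and 2.24-fold above *wild-type* replicates 1 and 3. The mean profile differed 2.09-fold between the mutant and *wild-type*. The share of all genes with mutant replicate 3 lowest and *wild-type* replicate 2 highest was not counted. This order alone therefore does not set the members apart from other genes. *twi*, *Ama*, *blow* and *Actn*, described below, also had it, while *Mef2* and *Tm1* did not.

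The shared movement was larger than what set the members apart. On the log2 scale, the SD within a genotype had a median of 0.75 over the 9 members, against 0.18 over the 8190 genes with a mean of at least 30 counts, many of which had far higher counts. Taken relative to the mean of the other members in the same library, the median SD was 0.33, and it was smaller than the SD of the level itself for 8 of the 9. The exception was *Mlc2*, with an SD of 0.26 for its level and 0.70 relative to the others. *up* followed the others most closely, with an SD of 0.73 for its level and 0.15 relative to the others. For *TpnC73F* these SDs were 0.75 and 0.25. Relative to the other members *TpnC73F* was lower in the mutant by 1.09 on the log2 scale, while *Mf* was higher by 1.01.

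**Figure D4:**
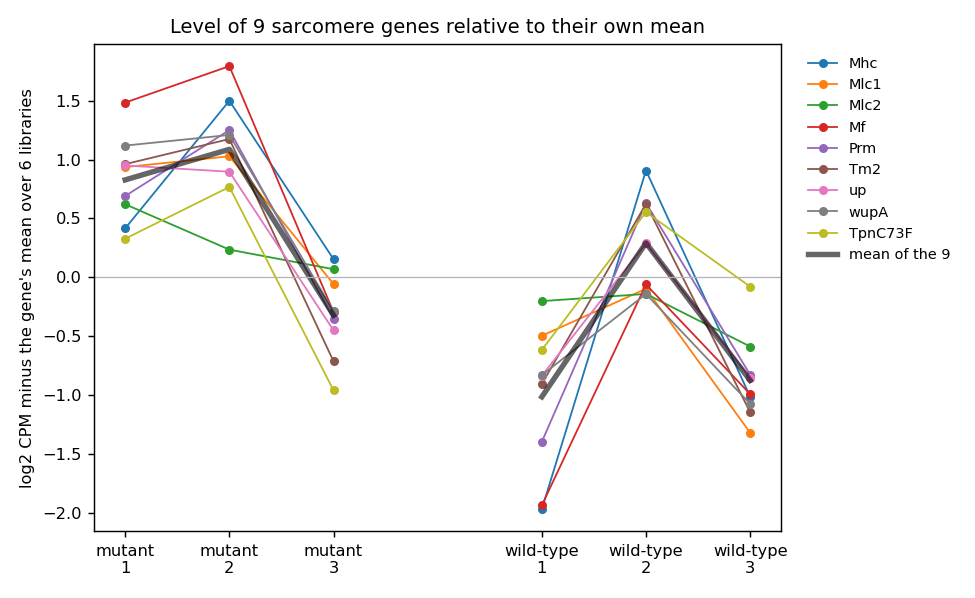
Log2 CPM of the 9 sarcomere genes with a mean of at least 30 counts, each relative to its own mean over the 6 libraries, in the 3 *dLsd1* mutant and 3 *wild-type* libraries. Thin lines join the values of a gene within a genotype, and the thick line is the mean of the 9, which was 2.65-fold higher in mutant replicate 2 than in mutant replicate 3 and 2.47-fold higher in *wild-type* replicate 2 than in *wild-type* replicate 1.

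The genes whose log2 profile over the 6 libraries lay nearest to this mean profile were taken from 8181 other genes with a mean of at least 30 counts, by the root mean square distance. The measure is a description over 6 libraries that share their depth and scaling with the members. The profile includes the difference between genotypes, a log2 value of 1.06. Genes near it were thus picked partly for that difference, and tests of them between genotypes are no separate evidence. The 8 nearest were *CG17440* (a distance of 0.29 on the log2 scale), *CG45076* (0.29), *Neurochondrin* (0.30), *CG8888* (0.31), *CG45078* (0.33), *l(2)efl* (0.35), *fau* (0.36) and *IFT54* (0.36), against a median of 0.84. *CG45076*, *CG45078* and *fau* overlap on the same strand of 3R and can share reads, so they are not separate examples. *l(2)efl*, a small heat shock protein gene of the list of muscle genes, had 5.62, 6.79 and 1.35 CPM in the mutant and 1.37, 3.93 and 1.17 CPM in *wild-type*. Mutant replicates 2 and 1 and *wild-type* replicate 2 were its highest libraries, as for *Tm2*, and the other 3 libraries lay close together. None of the 8 passed the thresholds in edgeR without the block (adjusted p-values from 0.112 to 0.612). With the replicate block *IFT54* did (log2 fold change 0.76, edgeR adjusted p = 0.0413), as it did by DESeq2 (0.81, adjusted p = 0.0451).

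Of 21 other sarcomere genes 16 were tested, 0 were differentially expressed in either direction (edgeR), and 12 had a positive log2 fold change, with a median of 0.50. Over all genes tested 4.32 percent were upregulated and 2.23 percent downregulated, so few calls or none are expected in a list this short. The 4 with the highest level per kilobase are given here. *Actn*, the cross-linker alpha-actinin, had 269.1 ± 20.3 CPM in the mutant and 283.5 ± 34.9 CPM in *wild-type* (SD, n = 3 each), and *tmod*, the pointed-end capping protein tropomodulin, had 207.9 ± 11.8 CPM in the mutant and 165.5 ± 63.5 CPM in *wild-type*. *Tm1*, a tropomyosin with both muscle and non-muscle forms, had 635.0 ± 42.5 CPM in the mutant and 521.8 ± 163.1 CPM in *wild-type*. *Act87E*, a muscle actin, had 46.5 ± 7.30 CPM in the mutant and 48.3 ± 0.409 CPM in *wild-type*. The log2 fold changes of these 4 genes lay between -0.08 and 0.33, with adjusted p-values of 0.503 to 0.842 from edgeR. Without *wild-type* replicate 3, *tmod* passed the thresholds (log2 fold change 0.67, edgeR adjusted p = 0.00714), and *Tm1* reached a log2 fold change of 0.55 (edgeR adjusted p = 0.0162), short of 0.6. The distance from the members' mean profile varied over the list, in a comparison made after the values were seen. *Zasp66*, a Z-disc protein gene, ranked ninth-nearest with a distance of 0.39. Next on the list were *sals* (0.48, rank 31), *Act57B* (0.50, rank 41) and *Mlp84B* (0.54, rank 69). Among the members, *Mhc*, *Mlc2* and *Mf* each lay 0.62 from the mean of the other members and *TpnC73F* 0.58. The other members lay closer, from 0.15 for *up* to 0.38 for *Mlc1*. *Actn* (0.75) and *Act87E* (0.76) lay below the median distance of 0.84. *Tm1* (0.85), *Zasp52* (0.87), *tmod* (0.87), *sls* (0.89), *bt* (0.90), *Unc-89* (0.90) and *Strn-Mlck* (0.95) lay above it.

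Of 13 tested muscle genes outside the sarcomere, 1 was upregulated and 0 downregulated, against 4.32 and 2.23 percent of all genes tested. The median log2 fold change of the 13 was 0.71. The upregulated gene was *Ca-alpha1D*, a voltage-gated calcium channel subunit of muscle and neurons. It had 16, 22 and 8 counts in the mutant and 0, 0 and 1 counts in *wild-type*, a 39.8-fold ratio of summed counts (exact 95% interval from 6.79 to 1604, for counting error only; adjusted p = 0.0182 from edgeR). It was past the thresholds in all 6 fits that left out a library each. *Mp20*, a muscle protein gene, was upregulated with the replicate block (log2 fold change 1.38, edgeR adjusted p = 0.0571) but not without it (1.27, edgeR adjusted p = 0.263). *Argk1*, arginine kinase, the most abundant of the list per kilobase, had 937.1 ± 144.7 CPM in the mutant and 1404 ± 195.2 CPM in *wild-type*. Its log2 fold change of -0.58 ± 0.16 (SE; edgeR adjusted p = 0.0873) stopped short of 0.6 in size. Without *wild-type* replicate 3 *Argk1* passed the thresholds (log2 fold change -0.68, edgeR adjusted p = 0.0124). *SERCA*, the calcium pump of the sarcoplasmic reticulum, and *Gpdh1*, a glycolytic enzyme gene, had log2 fold changes of 0.15 and -0.23, where edgeR gave adjusted p-values of 0.726 and 0.243.

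**Figure D5:**
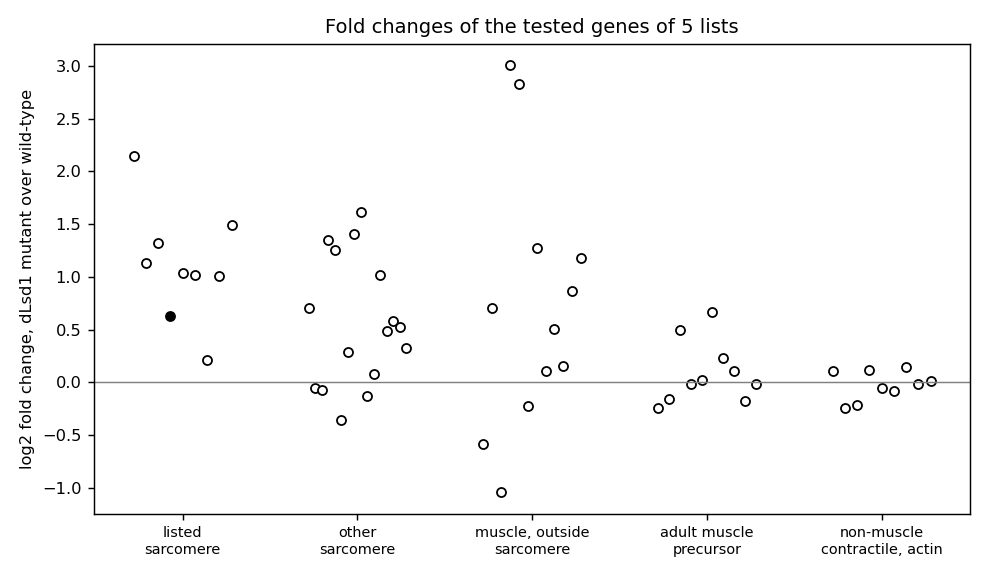
Log2 fold change, *dLsd1* mutant over *wild-type*, of the tested genes of 5 lists, with 1 symbol per gene and filled symbols for differentially expressed genes. *TpnC4* and *Ca-alpha1D*, both upregulated but at or near 0 counts in *wild-type*, are not drawn. Of the genes drawn only *Mlc2* is filled, and the adult muscle precursor and non-muscle lists centre near 0.

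In sum, the genes on the list of adult muscle precursors were at a higher level than the 10 listed sarcomere genes. This did not hold gene by gene. *sing* had at most 0.358 CPM in any library, and *Him* lay below *Mlc2* in both genotypes. Of 10 genes tested on the precursor list, 0 were differentially expressed by edgeR, with or without the block, and the median log2 fold change was 0.00. Without the block 4.32 percent of all genes tested were upregulated and 2.23 percent downregulated. *twi*, which codes for the transcription factor that marks these myoblasts, had 33.7 ± 5.67 CPM in the mutant and 38.1 ± 3.42 CPM in *wild-type*, and *Ama* had 316.2 ± 39.7 CPM in the mutant and 373.3 ± 55.9 CPM in *wild-type* (SD, n = 3 each). *blow*, needed for myoblast fusion, had 199.5 ± 5.13 CPM in the mutant and 202.3 ± 16.1 CPM in *wild-type*, and *stumps*, an adaptor of the FGF receptor, had 69.8 ± 2.75 CPM in the mutant and 64.9 ± 9.08 CPM in *wild-type*. The summed level of the list was 722.1 to 817.9 CPM in the mutant and 780.1 to 830.7 CPM in *wild-type*. *Ama* and *blow* made up most of this sum. Some less abundant genes of the list varied more, and *zfh1*, a transcription factor gene, had 13.9 to 17.7 CPM in the mutant and 8.01, 8.08 and 29.6 CPM in *wild-type*. *Mef2*, which codes for a transcription factor of muscle differentiation, had a log2 fold change of 0.50 (edgeR adjusted p = 0.274). Both *zfh1* and *Mef2* passed the thresholds in 1 of the 6 fits that left out a library each.

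The 9 non-muscle contractile and actin genes tested also gave 0 calls by edgeR in both fits, with a median log2 fold change of -0.02. The shares over all genes were 4.32 percent upregulated and 2.23 percent downregulated without the block. *Act5C* had 7230 ± 825.6 CPM in the mutant and 8562 ± 715.4 CPM in *wild-type*, *Act42A* 2245 ± 107.4 CPM in the mutant and 2086 ± 226.7 CPM in *wild-type*, *tsr* (cofilin) 1243 ± 55.4 CPM in the mutant and 1234 ± 136.0 CPM in *wild-type*, and *chic* (profilin) 1324 ± 65.3 CPM in the mutant and 1220 ± 215.4 CPM in *wild-type*. The differences of these 4 genes were smaller than 2 SD of the *wild-type* libraries.

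Genes on lists made for other larval tissues moved between the libraries as well. Whether the disc itself expresses some of these genes was not tested. The summed level of 8 fat body genes was 561.1, 361.2 and 120.2 CPM in mutant replicates 1 to 3 and 578.9, 862.1 and 62.7 CPM in *wild-type* replicates 1 to 3. As for the sarcomere genes, mutant replicate 3 was the lowest mutant library and *wild-type* replicate 2 the highest *wild-type* library, but *wild-type* replicate 2 was above each mutant library. The 8 salivary gland genes, with *ng1* at 0 in all libraries, summed to 2.39, 11.9 and 6.30 CPM in the mutant and 2.30, 23.7 and 0.575 CPM in *wild-type*, again with *wild-type* replicate 2 the highest. The 8 haemocyte genes summed to 138.9 to 193.0 CPM in the mutant and 129.3 to 204.5 CPM in *wild-type*, the 5 matched trachea genes to 1031 to 1197 CPM in the mutant and 1148 to 1477 CPM in *wild-type*, and the 7 matched neuron genes, with *Rdl* at 0, to 14.1 to 20.5 CPM in the mutant and 6.91 to 27.0 CPM in *wild-type*. By edgeR 3 genes of these lists were differentially expressed without the block, where 4.32 percent of all genes were upregulated and 2.23 percent downregulated. *Lsp1alpha*, a larval storage protein gene of the fat body, had 215, 140 and 71 counts in the mutant and 24, 7 and 57 counts in *wild-type*. *NimC1*, a phagocytosis receptor gene of haemocytes, had 9, 31 and 27 counts in the mutant and 97, 35 and 68 in *wild-type*. *ChAT*, which codes for the enzyme that makes acetylcholine in neurons, had 149, 199 and 201 counts in the mutant and 2, 0 and 2 in *wild-type*. With the replicate block edgeR also called 4 others, *Lsp1beta* (log2 fold change 1.06, adjusted p = 0.0842) and *Pxn* (0.69, adjusted p = 0.0861) as higher in the mutant, and *Fbp2* (-1.58, adjusted p = 0.0148) and *Sgs4* (-5.74, adjusted p = 0.0160) as lower, the last with 0, 1 and 0 counts in the mutant and 11, 21 and 2 counts in *wild-type*. The summed levels of their lists overlapped between genotypes. The part of other tissues in the levels of the sarcomere genes was not tested. In bulk RNA, a change in the number of cells of a type and a change in RNA per cell cannot be told apart.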

How the data were processed

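RNA-seq of wing discs was available from 3 *dLsd1* mutant and 3 *wild-type* samples, grouped by GEO's labels. The authors trimmed paired-end reads with Trimmomatic 0.36, aligned them with STAR 2.5.2a to dm6 and took out duplicate reads with Picard. What they deposited are raw counts without normalization, in whole numbers for 17642 genes and TE families per library, in TEToolkit's format. The paper names htseq-count for its gene test, and the counter behind the deposited gene counts, its annotation, strand and multiple-match settings are not given in the sources used here. Reads of overlapping or near-identical genes can be shared.

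Counts were tested with edgeR 4.0.16 (R 4.3.3; robust quasi-likelihood F-test, TMM) on the 10841 genes and the TE families with at least 10 counts over the 6 libraries, with Benjamini-Hochberg adjustment over all. Standard errors are the log2 fold change over the square root of F. Log2 profiles used a prior count of 0.5. Symbols, positions and exon lengths came from the annotation of BDGP6 (dm6 coordinates), release 115; *hbs*, *zip*, *wg*, *btl*, *dys* and *para* of the lists were not matched and are not analysed here. *Unc-89* was matched as *Obsc*. Other tables were made with pandas 2.3.3.

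Libraries held 13960866 to 45909324 counts. All pairs of replicates differed by more than sampling noise. Replicate numbers come from the labels, and the deviations of same-numbered libraries from their genotype means correlated at 0.36, 0.19 and 0.44 for numbers 1 to 3 over 8300 genes and TE families, so the number was taken to pair the samples. *Wild-type* replicate 2 correlated more with mutant replicate 1 (0.30) than with mutant replicate 2.

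The members and lists were chosen with earlier results of these data known. The genes named are the members, each called gene and the 4 with the most CPM per kb on the 4 lists of muscle and contractile genes, and the 8 nearest to the mean profile. Alternatives were DESeq2 1.42.0, other scalings and filters, genes without TE families, a fit with the replicate block, and fits that each dropped 1 library.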

Additional observations from a re-analysis of the deposited data

How the results depend on the processing

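The number of members differentially expressed, 2 by edgeR, was 6 with the replicate block, 5 with DESeq2, and 1 (*TpnC4*) with upper-quartile normalization or a filter of at least 60 counts. It ranged from 1 to 3 when a library was left out, with 1 without mutant replicate 1, mutant replicate 2 or *wild-type* replicate 1. *Mlc2* lost its call in 8 alternatives. The number of all genes differentially expressed, 710, was lowest at 373 (mutant replicate 2 left out) and highest at 1588 (*wild-type* replicate 3 left out). It was 759 with the replicate block, which also added a call for *IFT54* and, outside the genes named by rule, for *Mp20* and 4 genes on the lists for other tissues.

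The log2 ratio of the members' summed level, 0.87, ranged from 0.68 to 1.20 with a library left out and was 1.57 as a mean of log2 levels, in which *TpnC4* counts against its prior of 0.5. The number of members with a spread above the difference, 7, ranged from 2 to 9. *TpnC73F* ranged from -0.21 to 0.57 on the log2 scale with a library left out. Without a library, the direction also turned for *Act87E* (-0.144 to 0.0665), *Actn* (-0.152 to 0.0238), *SERCA* (-0.0387 to 0.42), *stumps* (-0.00412 to 0.18), *blow* (-0.0776 to 0.0366) and *tsr* (-0.0746 to 0.0799). Low counts limit what can be shown for the members, most of all in the shallow *wild-type* replicate 2. The cause of these shifts was not tested.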
